A study of Mus musculus with 4 samples.

Results

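The glutathione, peroxiredoxin and antioxidant genes are the enzymes that remove peroxides and superoxide, keep protein thiols reduced and attach glutathione to reactive compounds, together with the regulator pair NRF2 and KEAP1. They were chosen by gene symbol alone: the glutathione S-transferase (Gst), microsomal transferase (Mgst), glutathione peroxidase (Gpx), peroxiredoxin (Prdx), thioredoxin (Txn), thioredoxin reductase (Txnrd), superoxide dismutase (Sod) and glutaredoxin (Glrx) families, both subunits of glutamate-cysteine ligase, and Nqo1, Hmox1, Srxn1, Cat, Gsr, Gss, Nfe2l2 and Keap1. This gave 54 of the 15424 genes in the deposited table, and 52 of them reached a mean of 1 FPKM (a fragment count divided by transcript length and by the mapped total of the library) and are called measured here, as are other genes. Where a pair of values follows a gene, the shLuc column comes first and the shTaz column second. Gsta3 (listed at 0 and at 0.16 FPKM) and Gpx6 (0.334 and 0.242 FPKM) did not reach that mean.

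Tumors had grown subcutaneously from R728T1 cells transplanted into nude mice, hosts without mature T cells. The labels trace this line to an Rb/P53 mouse model of small cell lung cancer, which they also give as cell type, and use the term non-SMCs for its cells without explaining it. All tumors came from cells with an shRNA, which was directed at luciferase in the controls (shLuc) and at Taz in the knockdown (shTaz). The labels give neither the age of the mice nor the number of lines or clones. They list 2 samples per group, whereas the table holds 1 column per group, so there are no replicate values, no test was possible, and no difference below has a replicate check. In bulk tumors, fewer cells of a type and less RNA per cell cannot be told apart.

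Wwtr1, which encodes the TAZ coactivator, was at 23.4 and 15.1 FPKM. Taz, the older symbol of the cardiolipin enzyme gene Tafazzin, was at 13.7 and 9.50 FPKM. The small cell label could be set against few markers: of 9 neuroendocrine markers, 3 reached a mean of 1 FPKM and lay in both directions. Ncam1, for a neural adhesion molecule, was at 39.8 and 43.8 FPKM, Uchl1 was 2-fold lower, at 10.1 and 1.51 FPKM, and Nkx2-1, for a lung transcription factor, was at 2.51 and 0.939 FPKM. Nkx2-1 reached the mean of 1 FPKM only through the shLuc column. Below that mean, Syp was at 0.557 and 0.447 FPKM, and Insm1 was at 0.169 FPKM and listed at 0.

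Glutathione is a cysteine-containing tripeptide made by glutamate-cysteine ligase and glutathione synthetase. Glutathione peroxidases oxidise it to destroy peroxides, and glutathione reductase restores it with NADPH. Peroxiredoxins do similar work and are recharged mostly by thioredoxin and its reductases. NRF2, encoded by Nfe2l2, is held at low levels by KEAP1 and, when KEAP1 is modified by electrophiles or oxidants, activates many of these genes through the antioxidant response element.

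The members showed no common direction, and only some roles leaned to one side. Glutathione S-transferases, microsomal transferases and glutathione peroxidases were mostly lower in the shTaz column. The members that were higher did not form whole roles. Thioredoxin reductases, some peroxiredoxins, glutathione reductase, Nfe2l2 and Hmox1 were higher. Of the same roles, Txn1, Txn2, Prdx2, Prdx3, Prdx5 and Gss were lower and Keap1 was equal. Differences were computed on the log2 scale after 1 was added to each FPKM value, shTaz minus shLuc, and a difference of 1 is called 2-fold. Of the 52 members 23 were higher and 29 lower, where 58.3% of all 11650 measured genes were higher. Of the members, 1 was 2-fold higher (Gsta4), against 3.96% of all genes, and 3 were 2-fold lower (Gsto2, Gpx3 and Gpx7), against 3.25%. With a 1.5-fold line, chosen after the values were seen, 4 members were higher, against 17.3% of all genes, and 9 were lower, against 9.96%. The median difference of the members was -0.11, and that of all genes was 0.12, with 19 of 52 members above the latter, where by construction 50% of all genes lie. By role, it was -0.31 for glutathione S-transferases, -0.47 for microsomal transferases and -0.62 for glutathione peroxidases. With the trends of GC content and transcript length removed, these 3 medians were -0.19, -0.58 and -0.17. Above the median of all genes then lay 7 of 16, 0 of 3 and 2 of 5 members, against 4, 0 and 1 before. Peroxiredoxins and sulfiredoxin had a median of 0.33 before and 0.10 after this removal, and thioredoxins and reductases 0.43 and 0.22. For NRF2, KEAP1 and classical targets it was 0.46 and 0.34, and for glutathione synthesis and recycling 0.16 and -0.27. Glutaredoxins gave -0.03 and -0.46, and superoxide dismutases and catalase -0.10 and -0.38. The members' summed level was 2956 and 2651 FPKM, the second being 89.7% of the first, whereas the whole table summed to 85.3% of its shLuc total.

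**Figure D1:**
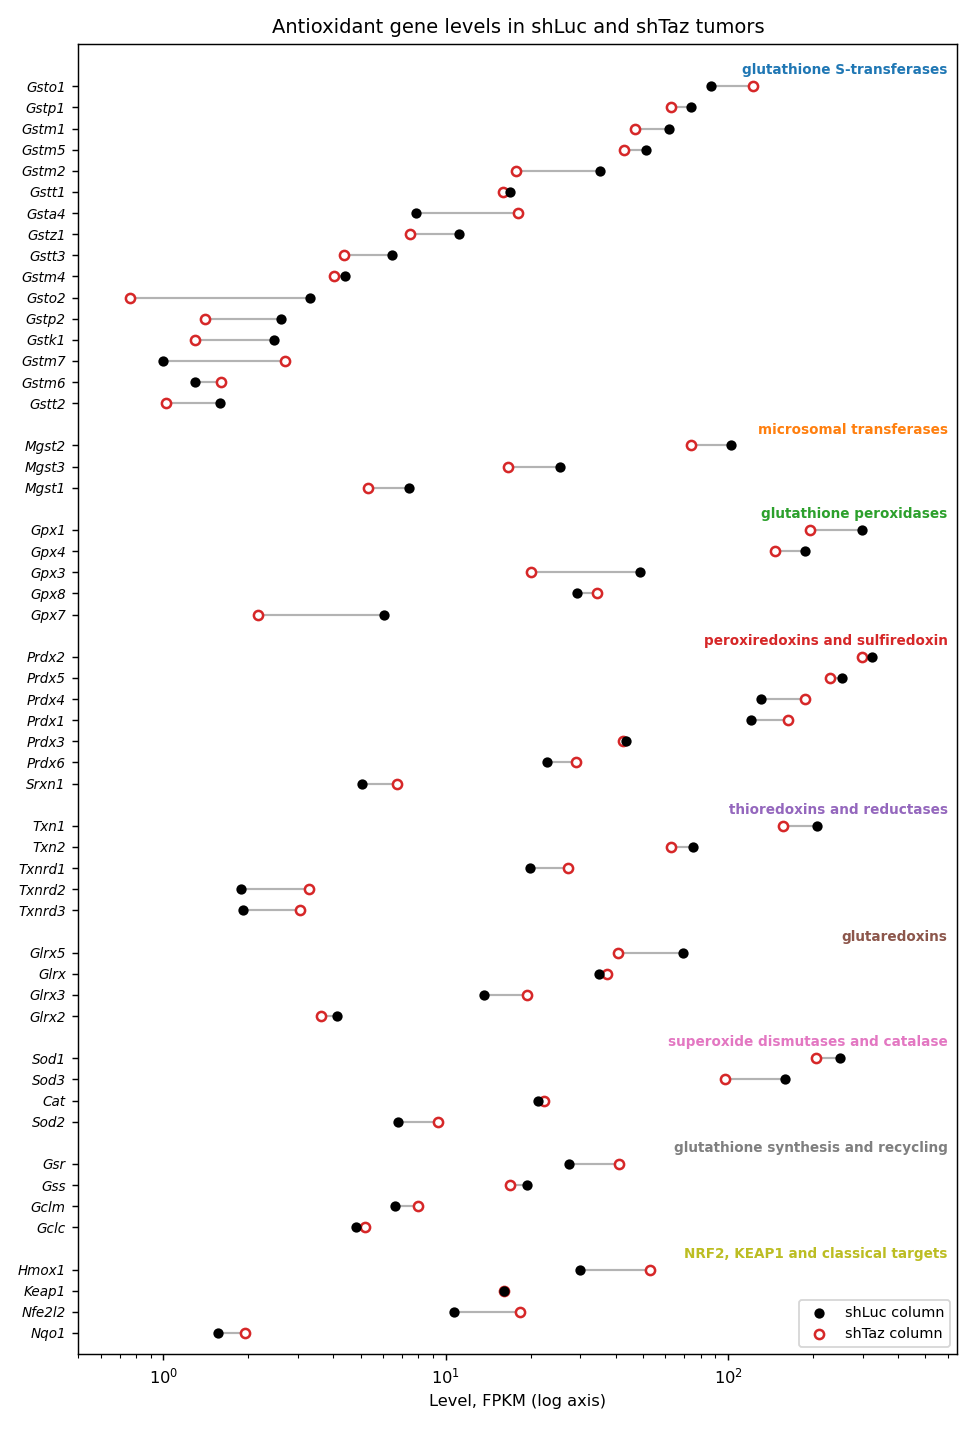
Levels of the 52 measured members, on a log axis in FPKM, by role and then by mean level; filled points are the shLuc column, open points the shTaz column, and there are no error bars because there is 1 value per group. Prdx2 is the most abundant member in both columns, and Gsto2, Gpx3 and Gpx7 have the widest gaps to the left.

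Glutathione S-transferases, cytosolic enzymes that join glutathione to electrophiles, were lower in the shTaz column in 12 of 16 measured members, with a median difference of -0.31. The most abundant, Gsto1, an omega-class enzyme with thioltransferase activity, was nevertheless higher, at 86.8 and 122 FPKM. Gstp1, the pi-class enzyme, was at 73.9 and 63.1 FPKM. The summed level of the family, of which Gsto1 was the largest part, was 368 and 352 FPKM, or 95.4% of the control value, although most of its genes were lower.

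The omega-class genes lie side by side on the plus strand of chromosome 19 in mm10, Gsto1 at 47854970 to 47864790 and Gsto2 at 47865534 to 47886324, and they differed in opposite directions. Gsto2, which has dehydroascorbate reductase activity, was at 3.32 and 0.764 FPKM, the largest negative difference of any member (-1.29), and 1.803% of all genes lay lower. With a pseudocount of 0.1 in place of 1, its difference was -1.98. Its shTaz value was below 1 FPKM, so Gsto2 reached the mean of 1 FPKM only through the shLuc column, where it was higher.

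The mu-class genes lie together on chromosome 3 and were also divided. Gstm1 was at 62.1 and 46.8 FPKM, and Gstm2, its close relative, at 35.2 and 17.8 FPKM. Gstm5 was at 51.4 and 42.7 FPKM and Gstm4 at 4.39 and 4.02 FPKM. The low-level genes Gstm7 (0.993 and 2.69 FPKM) and Gstm6 (1.29 and 1.60 FPKM) were higher, so the 2 scarcest genes of the cluster were higher and the other 4 lower. Gstm7 reached the mean of 1 FPKM only through the shTaz column. Between 2.15% and 6.96% of the 30-base words of Gstm1, Gstm2, Gstm4, Gstm6 and Gstm7 transcripts also occur in another member, so a small part of their reads could be assigned to a relative.

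The alpha-class gene Gsta4, whose enzyme detoxifies the lipid peroxidation product 4-hydroxynonenal, was the highest of all members by difference. It was at 7.87 and 18.0 FPKM, a difference of 1.10, and 97.3% of all genes lay lower. It was just over the 2-fold line and lay at 0.98 after median-ratio scaling and at 0.91 with the GC trend removed.

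The remaining classes were lower throughout, with small differences in part. Gstt1, of the theta class, was at 16.9 and 16.0 FPKM, Gstt3 at 6.46 and 4.36 FPKM, and Gstt2 at 1.59 and 1.02 FPKM. Gstz1, the maleylacetoacetate isomerase of tyrosine breakdown, was at 11.1 and 7.49 FPKM, and the mitochondrial and peroxisomal kappa-class gene Gstk1 at 2.46 and 1.29 FPKM. Gstp2, at 2.61 and 1.402 FPKM, is uncertain, because 69.9% of its 30-base words also occur in Gstp1 transcripts. Gstt1, Gstp1 and Gstm4 changed sign under some scalings and trend corrections.

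The microsomal transferases, membrane-bound relatives that act in glutathione conjugation and leukotriene synthesis, were lower in all 3 members. Mgst2 was at 103 and 73.8 FPKM, Mgst3 at 25.4 and 16.7 FPKM, and Mgst1 at 7.40 and 5.32 FPKM. None reached 2-fold, and their differences lay between -0.58 and -0.41. All of them stayed lower under every scaling and trend correction run.

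Glutathione peroxidases were lower in 4 of 5 measured members, with a median difference of -0.62 and a summed level of 571 and 398 FPKM. Gpx1, the cytosolic and mitochondrial enzyme, was at 299 and 195 FPKM. Gpx4, which reduces lipid hydroperoxides in membranes and restrains ferroptosis, was at 188 and 147 FPKM. Gpx3, the secreted enzyme of plasma, was at 48.7 and 20.1 FPKM, and it ranked 17 and 25 among the members.

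The members that act in the endoplasmic reticulum differed in direction. Gpx7, which passes oxidising equivalents from peroxide to protein disulfide isomerase, was at 6.04 and 2.16 FPKM, 2-fold lower. Its relative Gpx8 was at 29.1 and 34.3 FPKM, and Prdx4, the peroxiredoxin of that compartment, at 131 and 187 FPKM. On the log2 scale these differed by -1.16, 0.23 and 0.51. The Gpx8 value turned to -0.18 with the GC trend removed, whereas Gpx7 and Prdx4 kept their directions.

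The products of Gpx3 and of Sod3, the extracellular superoxide dismutase, are secreted, and both genes were lower. Sod3 was at 159 and 97.7 FPKM, a difference of -0.70. Over the 6 measured members that the table's gene ontology column places in the extracellular region, the median difference was -0.55, and over all 605 such genes it was -0.10. These terms were chosen after the values were seen. Prdx4 was the member among the 6 that was higher, and the others were Gpx7, Gstm1 and Txn1.

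Markers of other cells differed between the columns too. Of 9 fibroblast markers 5 were 2-fold lower and none was 2-fold higher, and they summed to 2172 and 1380 FPKM with none at 0. Of 6 mast cell markers, 3 reached a mean of 1 FPKM (Tpsab1, Tpsb2 and Mcpt4), each only through the shLuc column. All 3 were 2-fold lower, a direction that the filter favours for such genes. Of all genes, 3.25% were 2-fold lower. The mast cell list summed to 37.4 and 1.71 FPKM, and Cpa3, Cma1 and Mcpt4 were listed at 0 in the shTaz column. Endothelial markers summed to 133 and 88.6 FPKM, of which Plvap made up 67.2 and 36.2 FPKM. Of the 7 endothelial markers measured 2 were higher and 5 lower, none by 2-fold, with a median difference of -0.10. Adipocyte markers summed to 51.1 and 33.4 FPKM, both of the 2 measured were lower, neither by 2-fold, and Plin1 was listed at 0 in the shLuc column. The part of these cells in the lower Gpx3, Sod3, Gpx7 and Gst values was not tested.

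**Figure D2:**
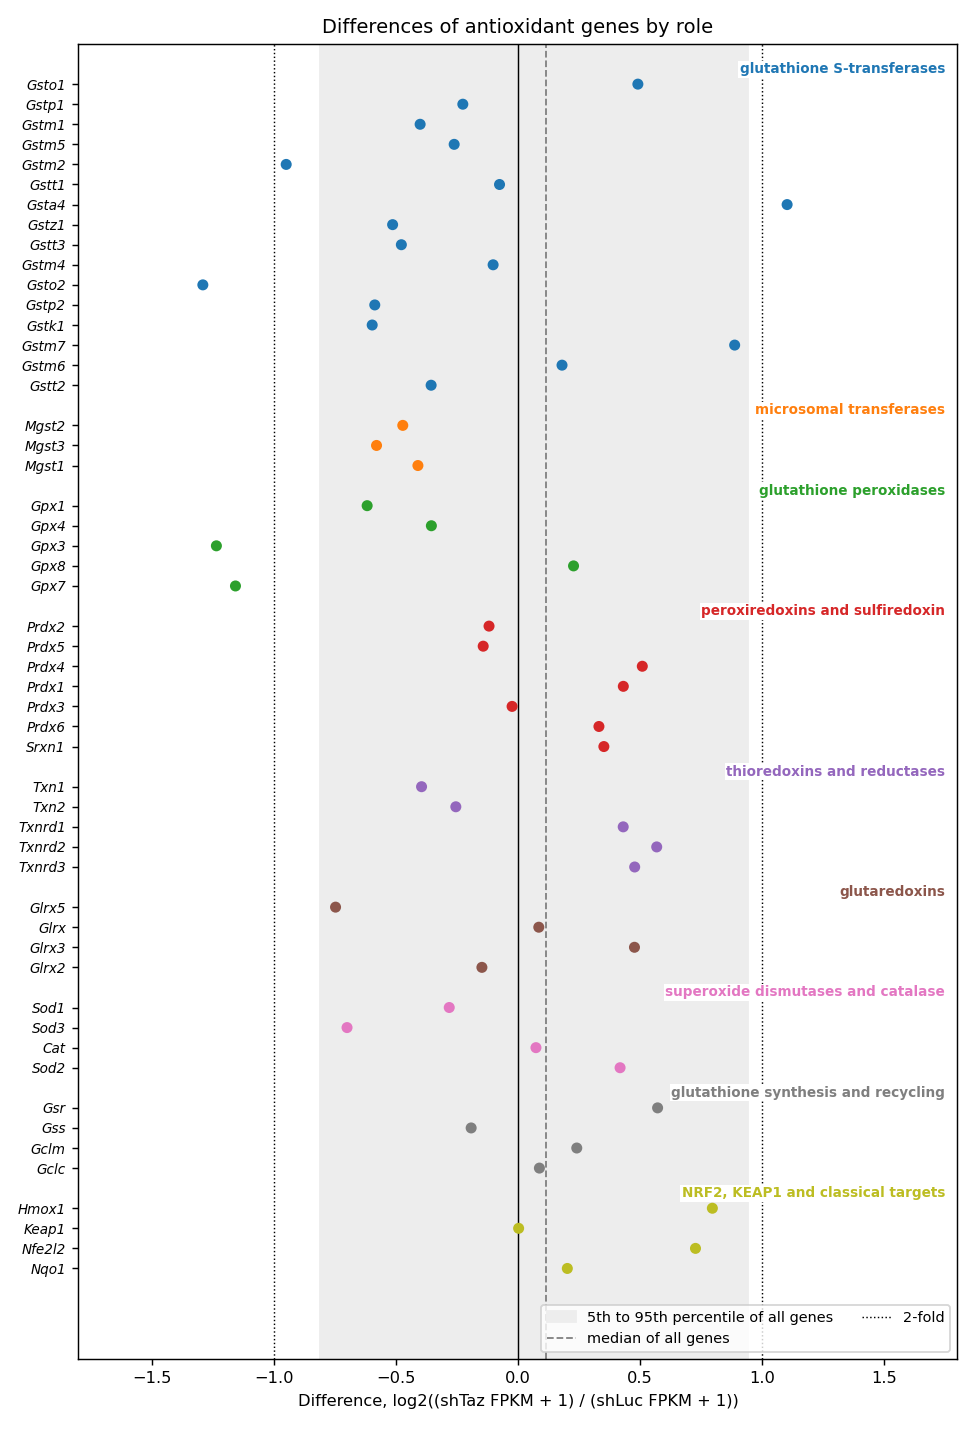
Difference of each of the 52 members, log2((shTaz FPKM + 1) / (shLuc FPKM + 1)), by role; the grey band spans the 5th to 95th percentile of all 11650 genes (-0.81 to 0.94), the dashed line is their median (0.12) and the dotted lines are 2-fold. Gsta4 lies beyond the upper dotted line, and Gsto2, Gpx3 and Gpx7 beyond the lower one.

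Peroxiredoxins, abundant peroxidases that work through a reactive cysteine, were the most highly expressed family, and their summed level was nearly equal, at 896 and 950 FPKM. Of the 6 members 3 were higher and 3 were lower, none by 1.5-fold. The cytosolic Prdx2 was at 324 and 299 FPKM and ranked first in both columns. Prdx5, found in mitochondria, peroxisomes and cytosol, was at 254 and 230 FPKM, and the mitochondrial Prdx3 at 43.4 and 42.6 FPKM. These 3 were close to equal, and each of them changed sign under some settings.

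Prdx1, the other abundant cytosolic member, was higher, at 120 and 163 FPKM, as were Prdx4 and Prdx6 (22.9 and 29.1 FPKM), which reduces phospholipid hydroperoxides with glutathione. Srxn1, which encodes the sulfiredoxin that rescues overoxidised peroxiredoxins, was at 5.04 and 6.71 FPKM. Prdx1 has an AT-rich transcript (42.3% GC), and its difference of 0.43 became -0.05 with the GC trend removed. Prdx4, Prdx6 and Srxn1 stayed higher, at 0.21, 0.12 and 0.38.

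Prdx2, Gpx1 and Cat are also abundant in red blood cells. The erythroid markers were therefore read beside them: 7 of 10 were listed, they summed to 513 and 383 FPKM, Slc4a1 was listed at 0 in the shTaz column, and of the 5 measured ones 3 were higher and 2 lower, none by 2-fold. The 2 lower ones were the most abundant, Hba-a1 (265 and 217 FPKM) and Beta-s (228 and 143 FPKM). The 3 higher ones were Hba-a2 (0.413 and 1.61 FPKM), Hbb-b2 (17.3 and 17.7 FPKM) and Alas2 (2.07 and 3.79 FPKM). Hba-a2 reached the mean of 1 FPKM only through the shTaz column. The part of red cells in these values was not tested.

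Thioredoxins and their reductases differed in opposite directions. Txn1, the cytosolic thioredoxin that reduces protein disulfides, was lower, at 207 and 157 FPKM, and the mitochondrial Txn2 was lower too, at 74.9 and 62.6 FPKM. All 3 reductases, selenoenzymes that recharge thioredoxin with NADPH, were higher. Txnrd1, the cytosolic form, was at 19.8 and 27.1 FPKM, the mitochondrial Txnrd2 at 1.88 and 3.27 FPKM, and Txnrd3 at 1.91 and 3.06 FPKM. The differences of the reductases lay between 0.43 and 0.57, and 73.0% to 81.6% of all genes lay lower. The opposite signs of thioredoxins and reductases were kept in every setting run, with the narrowest values at -0.03 for Txn2 and 0.22 for Txnrd1.

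Glutaredoxins, small thiol enzymes that use glutathione, showed no common direction. Glrx5, which serves iron-sulfur cluster assembly in mitochondria, was lower, at 69.1 and 40.7 FPKM, and 6.14% of all genes lay lower. Glrx3, its cytosolic counterpart in iron handling, was higher, at 13.7 and 19.4 FPKM. The classical glutaredoxin Glrx was nearly equal (34.9 and 37.1 FPKM), as was Glrx2 (4.12 and 3.62 FPKM), and both changed sign between settings.

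Of the superoxide dismutases, Sod1, the copper-zinc enzyme of the cytosol, was at 249 and 205 FPKM. Sod2, the manganese enzyme of mitochondria, was higher, at 6.77 and 9.38 FPKM, but its AT-rich transcript (42.2% GC) gave -0.07 with the GC trend removed. Cat, the peroxisomal catalase, was at 21.2 and 22.4 FPKM, a difference of 0.07. The abundant copper-zinc forms Sod1 and Sod3 were thus the lower ones, and they stayed lower in every setting.

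In glutathione synthesis the differences were small. Gclc, the catalytic subunit of glutamate-cysteine ligase, was at 4.80 and 5.17 FPKM, and Gclm, its modifier subunit, at 6.62 and 8.0 FPKM. Gss, the synthetase, was at 19.5 and 16.9 FPKM. These 3 genes changed sign between settings. Gsr, the reductase that recycles oxidised glutathione, was higher, at 27.3 and 41.0 FPKM, and its difference of 0.57 lay between 0.42 and 0.81 over the settings run.

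Nfe2l2 itself was higher, at 10.7 and 18.4 FPKM, a difference of 0.73, and 88.7% of all genes lay lower. Keap1 was equal, at 16.0 and 16.1 FPKM. Hmox1, the heme oxygenase of heme breakdown, was at 29.96 and 52.8 FPKM, a difference of 0.80. Nqo1, a quinone reductase, was at 1.56 and 1.95 FPKM, ranking 50 and 47 of the 54 members by level. Over all settings Nfe2l2 lay between 0.42 and 0.98 and Hmox1 between 0.66 and 1.03, whereas Keap1 and Nqo1 changed sign.

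Hmox1 is also a macrophage gene. All 10 macrophage markers were measured, none was 2-fold different or at 0, and they summed to 5081 and 4939 FPKM. Of the 10, 6 were higher and 4 lower, with a median difference of 0.37. The largest positive difference was that of the receptor gene Mrc1 (12.3 and 20.7 FPKM), and the largest negative one that of the most abundant marker, the complement gene C1qa (1868 and 1470 FPKM). The part of macrophages in the Hmox1 value was not tested.

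A list of 24 NRF2 target genes that are not members showed no common direction. Of 20 measured, 10 were higher and 10 lower, with a median of -0.03. Only Aldh3a1, an aldehyde dehydrogenase gene, was 2-fold different, at 7.05 and 1.19 FPKM. The ferritin genes, by far the most abundant, were at 2549 and 2126 FPKM for Ftl1 and at 1844 and 2029 FPKM for Fth1. Among 11 measured partners and regulators of NRF2 none differed 2-fold. Cul3, the ubiquitin ligase scaffold that acts with KEAP1, was at 6.51 and 13.9 FPKM, just under 2-fold higher, and 0.41 with the GC trend removed. Bach1, a repressor at the same element, was at 2.31 and 3.69 FPKM.

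The core of the antioxidant response element, TGACNNNGC, was searched on both strands in the 250 bases before each start site, in RefSeq promoters of GRCm38.p6, the assembly that mm10 names. Promoters were matched for 47 of 54 members, and 9 of the 47 (19.1%) held the motif in at least 1 promoter, against 13.9% of 8880 matched and measured genes and 11.5% of all 27025 genes. The 47 include Gsta3, with the motif, and Gpx6, without it, which were not measured. Genes with more promoters have more chances to hold it. Counted by promoter, the shares were closer: 13.8% of 65 member promoters, 11.6% of 11323 promoters of measured genes and 10.2% of all 32851. The match is a description of letters and not evidence of binding. The sites of 6 members are shown, in the direction of transcription with the motif in capitals, because these members lie on both sides of 0. The reverse form of the motif reads GCNNNGTCA.
Nfe2l2, chr2:75704885-75704913, minus strand: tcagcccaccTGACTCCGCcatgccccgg
Prdx1, chr4:116685456-116685484, plus strand: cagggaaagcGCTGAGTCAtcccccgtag
Txnrd1, chr10:82859104-82859132, plus strand: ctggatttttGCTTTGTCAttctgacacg
Gclm, chr3:122245413-122245441, plus strand: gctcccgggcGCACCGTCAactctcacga
Gstm5, chr3:107895802-107895830, plus strand: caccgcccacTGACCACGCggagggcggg
Sod1, chr16:90220696-90220724, plus strand: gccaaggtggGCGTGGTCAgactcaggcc

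The first 4 belong to members that were higher in the shTaz column, and those of Gstm5 (-0.26) and Sod1 (-0.28) to members that were lower. With the GC trend removed, Gclm and Prdx1 turned lower (-0.25 and -0.05), whereas the other 4 kept their signs. The motif began 133 bases before the start site in Prdx1 and 240 in Nfe2l2. In Txnrd1 it lay in 1 of 3 promoters, 92 bases before a start site inside the gene's span (82833951 to 82897712). Over the 8 measured members with the motif, 5 were higher and 3 lower, with a median difference of 0.34. Over the 37 measured members without it, 13 were higher and 24 lower, with a median of -0.15. The ranges overlapped, from -0.41 to 0.89 with the motif and from -1.29 to 0.57 without. With the GC trend removed, 3 of the 8 with the motif were higher and 5 lower, with a median of -0.15 that lay close to that of the 37 without it (-0.23). No promoter was matched for Hmox1, Gsr, Gclc, Gsta4 and Prdx6, which were higher, or for Sod3 and Gstt2, which were lower, so these 7 are not in the counts.

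Other redox lists were read beside the members. Of 17 measured genes of selenoprotein synthesis and other selenoproteins, 1 was 2-fold lower: Selm, which encodes selenoprotein M of the endoplasmic reticulum, at 110 and 40.2 FPKM. The abundant Sepw1, for selenoprotein W, was at 518 and 343 FPKM, and 2810407C02Rik, for selenoprotein T, at 12.6 and 26.2 FPKM, just under 2-fold higher. The median of the list was 0.18. Sepp1, for selenoprotein P, was higher, at 77.9 and 100.6 FPKM, so the abundant genes of the list also lay on both sides of 0.

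Among 19 measured thioredoxin-fold genes and regulators none was 2-fold different. Msra, a methionine sulfoxide reductase gene, was at 10.01 and 19.8 FPKM and Txndc16 at 2.79 and 5.57 FPKM. The median of the list was 0.13, close to that of all genes. In glutathione supply and turnover none of 15 measured genes was 2-fold different, and the largest differences were those of Ggt7 (2.96 and 1.27 FPKM), a gamma-glutamyltransferase family gene, and Hagh (17.9 and 26.75 FPKM), a glyoxalase. Slc7a11, the cystine importer that limits glutathione synthesis in many cells, was at 0.41 and 1.39 FPKM, under the mean of 1 FPKM.

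Of 11 measured genes of ferroptosis and iron handling, Acsl4 was 2-fold higher, at 6.40 and 15.05 FPKM. It encodes the acyl-CoA synthetase that loads membranes with peroxidisable fatty acids, the substrates of GPX4. Its difference of 1.12 was 0.55 with the GC trend removed. Aifm2, which encodes the ferroptosis suppressor FSP1, differed in the other direction, at 6.68 and 3.78 FPKM. Of the 11 genes 9 were higher and 2 lower, where 58.3% of all genes were higher. The median of the list was 0.41, against 0.12 for all genes, and it was 0.18 with the GC trend removed. Of 8 measured oxidant-producing genes none was 2-fold different. Cybb, the NADPH oxidase subunit of phagocytes, was at 12.6 and 17.25 FPKM, and Xdh at 2.98 and 1.96 FPKM.

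The base composition of transcripts moved with the differences of the members in the same direction as with those of all genes, but less closely. The 52 members had transcripts of 42.1% to 60.2% GC (median 50.4%), close to the median of all genes (50.2%), but shorter ones, with a median longest transcript of 1766 bases against 3267. Among the members Spearman's rho between GC content and the difference was -0.29, and among 11055 genes it was -0.56. Genes share libraries and are not replicates, so these are descriptions.

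The genes were divided into 3 equal groups by GC content. In the lowest group (up to 47.1% GC) 9 of 14 members were higher and the median was 0.21, against 0.44 for all genes there. In the middle group it was -0.11 for 26 members, against 0.13. In the highest group (from 53.4% GC) 10 of 12 members were lower and the median was -0.30, against -0.21. The members' median was therefore below that of all genes in each group. The members in the highest group included 4 of the glutathione peroxidases, namely Gpx1, Gpx3, Gpx4 and Gpx7.

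**Figure D3:**
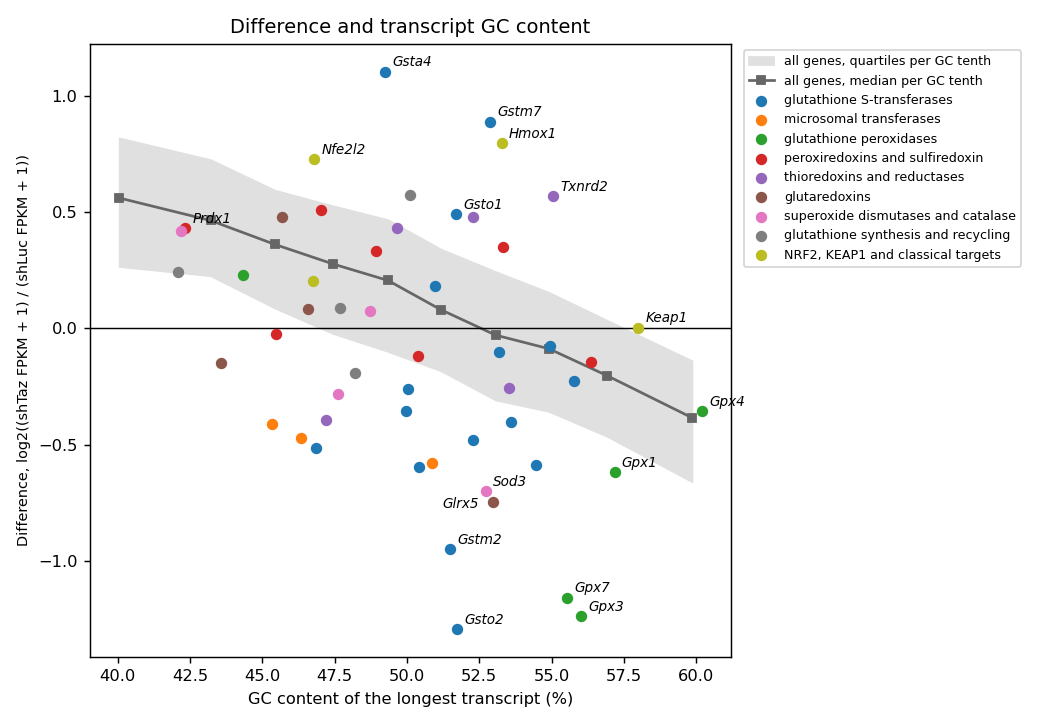
Difference of each member (log2) against the GC content of its longest transcript in percent; the squares join the median of all genes in each of 10 equal groups by GC content, and the grey band spans their quartiles. The medians of all genes run from 0.56 at the lowest GC content to -0.38 at the highest, Gpx4 lies on that line, and Gpx3, Gpx7, Gsto2 and Gstm2 lie far below it.

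Removal of the GC trend separated the members into those that stayed and those that did not. Gpx3 (-1.08), Gpx7 (-1.02) and Gsto2 (-1.34) remained 2-fold lower, and Gstm2 (-1.01) joined them, so that 4 members were 2-fold lower where 3.17% of all genes were. Gpx4 moved from -0.35 to 0.03 and Gpx1 from -0.62 to -0.39. Of 52 members 11 changed sign, and none was 2-fold higher, where 1.5% of all genes were. With the length trend removed as well, Gsto2 (-1.19) was still 2-fold lower, while Gpx3 (-0.97), Gpx7 (-0.85) and Gstm2 (-0.79) were not. Gpx4 then lay at 0.27 and Gpx1 at -0.17. The filters and the pseudocount cannot turn a sign, so only scalings and trend corrections bear on the constancy of direction. Members higher in every one of these numbered 14: Gsta4, Gstm6, Gstm7, Gsto1, Glrx3, Gsr, Hmox1, Nfe2l2, Prdx4, Prdx6, Srxn1 and the reductases Txnrd1, Txnrd2 and Txnrd3. A further 20 were lower in every one, and 18 changed sign.

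**Figure D4:**
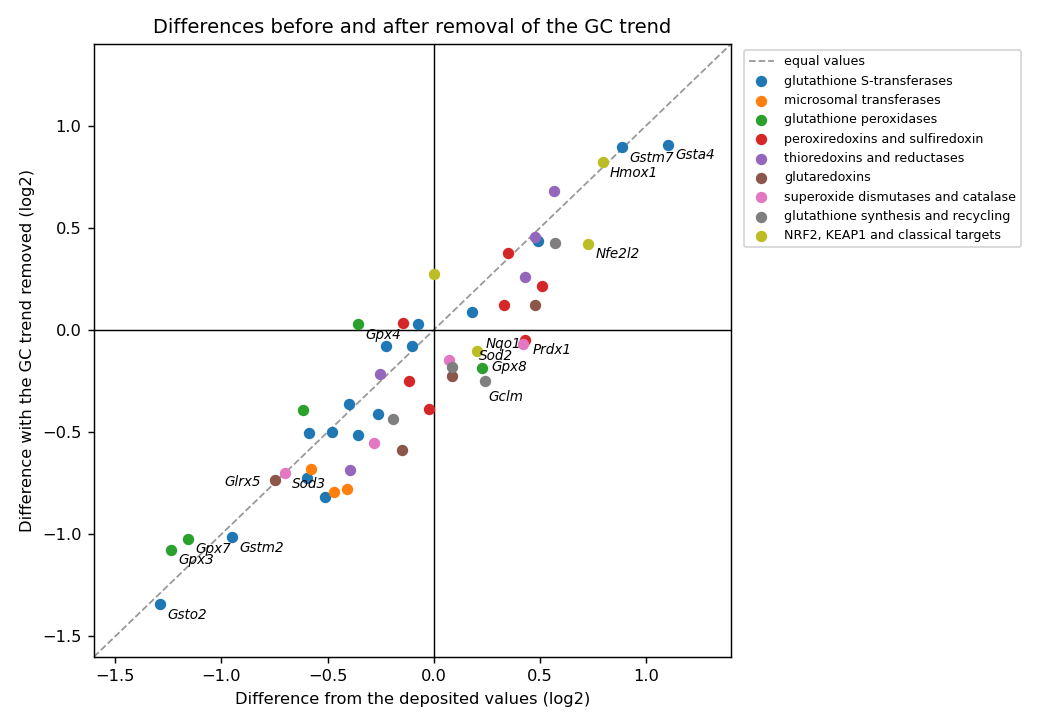
Difference of each member from the deposited values (horizontal axis, log2) against its difference with the GC trend of all genes removed (vertical axis, log2); the dashed line marks equal values. Prdx1, Sod2, Gclm, Nqo1 and Gpx8 lie to the right of 0 and below it after removal, and Gpx3, Gpx7 and Gsto2 lie below -1 on both axes.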

How the data were processed

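RNA from subcutaneous tumors was sequenced, with 2 samples listed per group, 4 in all. Trim Galore, TopHat and genome build mm10 are named in the submitters' processing notes. Versions, the FPKM program, the annotation and the strand setting are not given in the sources used here. The authors deposited FPKM values in 1 column per group, whose heading matches a label that both samples of the group carry, and whether a column is a mean or a pool is not stated. FPKM values divide by transcript length and by the mapped total, and correct neither for GC content nor for very abundant RNAs. Depth is unknown: low values times length were searched for whole-read steps, and at best 27.4% of 1191 (shLuc) and 26.5% of 1018 (shTaz) lay within 0.1 of a whole step, against 20% by chance for a single step. No counting interval can therefore be given.

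Differences are log2 ratios, shTaz over shLuc, after adding 1 to both values. They understate low genes and were taken where the mean reached 1 FPKM. With 1 column per group the planned limma test was not possible, and 2-fold is a line of size. The members and lists were chosen with earlier results of these data known. The rule for names took the members with 2-fold differences and the 2 most abundant members of each role, and from each further list the genes with 2-fold differences (up to 4) or the 2 that differed most. For the cell type lists the rule was not always kept, and some genes with 2-fold differences are not named. Other names were chosen after their values were seen. Older symbols were matched through Entrez identifiers and RefSeq synonyms. Length, GC content and positions came from the longest GENCODE M21 transcript (mm10), for 94.9% of measured genes and all 52 measured members. The alternatives were 8 planned and 5 chosen after seeing the data. Trends were removed by lowess with a span of 0.3 (Python 3.11.15, statsmodels 0.14.6, pandas 2.3.3). The removal of a GC trend was tried on simulated data with a straight-line trend. Removal of the length trend, alone or after GC content, was not tried in this way. Skeletal muscle, neutrophil and keratinocyte markers were also read, with sums given shLuc first. The muscle list summed to 24.4 and 59.8 FPKM and all 5 measured markers were higher. Of these, 4 were 2-fold higher, against 3.96% of all genes, and the median difference was 1.78. Of the 8 listed, 3 were at 0 in the shLuc column. Acta1, Ckm and Mylpf reached the mean of 1 FPKM only through the shTaz column. The neutrophil list summed to 132 and 101 FPKM through Mmp9 (125 and 45.0 FPKM), while the other 3 of the 4 measured markers were higher: S100a8 (listed at 0, and 18.6 FPKM), S100a9 (0.81 and 29.2 FPKM) and Csf3r (3.93 and 7.10 FPKM). S100a8 and S100a9 reached the mean of 1 FPKM only through the shTaz column. The keratinocyte list summed to 11.0 and 13.3 FPKM, with 2 of 3 measured markers higher.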

Additional observations from a re-analysis of the deposited data

How the results depend on the processing

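No paired analysis was possible because there is 1 column per group and no value per sample. The members' median of -0.11 stayed below that of all genes in every setting, and turned to 0.10 when both columns were scaled to the same sum, where the median of all genes was 0.34. The count of members 2-fold higher (1) was 2 with a pseudocount of 0.1, with the length trend removed and with both trends removed, 3 with scaling to the same sum, 0 with median-ratio scaling, at a minimum mean of 20 FPKM and with the GC trend removed, and 4 at 1.5-fold. The count 2-fold lower (3) was 1 at a minimum mean of 5 or 20 FPKM and with both trends removed, and 9 at 1.5-fold. The count above the median of all genes (19) was 12 of 27 members at a minimum mean of 20 FPKM. The median of thioredoxins and reductases (0.43) was -0.25 at a minimum mean of 5 or 20 FPKM, since these filters drop Txnrd2 and Txnrd3. The median of the selenoprotein list (0.18) was -0.50 at a minimum mean of 20 FPKM. Leaving out Gstp1 and Gstp2, or genes that are not protein-coding, changed no call. The unknown depth limits low members such as Gsto2, Gstm7 and Nqo1 most.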
